A study of Mus musculus with 16 samples.

Results

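Neutrophils among the CD45+ cells of 2 subcutaneous mouse tumors were described here. They were chosen from single-cell RNA sequencing by the unique molecular identifiers (UMIs, each marking 1 captured transcript) of a few genes: at least 10 UMIs of S100a8 plus S100a9, at least 1 UMI of Csf3r plus Cxcr2, none of Cd3d or Cd3e, and fewer than 2 UMIs of C1qa, C1qb and C1qc per 1000. The gate was applied to cell barcodes in which 300 or more genes were seen and mitochondrial UMIs made up 10% or less, and a barcode sequence found in several libraries of a tumor line was kept only in the library where it had the most UMIs. It took 1025 of 17560 kept barcodes, of 28678 deposited. Of these, 1018 came from Panc02-SIY tumors and 7 from MC38 tumors.

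MC38 cells come from a mouse colorectal carcinoma, and Panc02-SIY cells from a pancreatic adenocarcinoma and carry the model antigen SIY. Both were grown under the skin of C57BL/6J mice. Each line had an untreated group (NT) and a group harvested 24 h after a single CT-guided dose of 12 Gy to the tumor (RT), with 4 libraries in each of the 4 groups and 16 in all. All cells were enriched for CD45 on magnetic beads and sorted as live CD45+ before 10x Genomics 3′ library preparation, so each value below is a share or a level among sorted leukocytes and not an amount per tumor. The sample labels call the 4 libraries of a group replicates without naming the animals. The series' design text gives as many animals per group as libraries and the study's methods give fewer, so whether each library is a separate animal is not settled, and the p-values measure the spread between libraries. The libraries held between 3240877 and 43776342 UMIs.

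Neutrophils are short-lived granulocytes that leave the bone marrow under the control of the cytokine G-CSF, whose receptor is encoded by Csf3r, and enter tissue along CXC chemokines sensed by the receptor that Cxcr2 encodes. S100a8 and S100a9 encode the subunits of calprotectin, the main cytosolic protein of the mature cell. Granule enzymes are transcribed early, in the marrow, while cytokine, chemokine and receptor genes are transcribed by mature cells in tissue. In irradiated tissue the p53 and interferon programs are the transcriptional responses most often followed.

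On the mm10 (GRCm38) build with GENCODE vM21 gene models, the forward-strand gene S100a8 (ENSMUSG00000056054) lies at chr3:90668978-90670035, and the reverse-strand gene S100a9 (ENSMUSG00000056071) at chr3:90692632-90695721. Csf3r (ENSMUSG00000028859) lies at chr4:126024550-126044440 and Cxcr2 (ENSMUSG00000026180) at chr1:74153989-74161246. These 4 genes chose the cells, so their levels are given as a description without a test.

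Barcode sequences were shared between libraries far more often in MC38 than in Panc02-SIY. After the filter on genes and mitochondrial UMIs, 64.4% of the distinct MC38 sequences occurred in several MC38 libraries, and keeping each once removed 6815 barcodes. For Panc02-SIY the share was 1.13% and 685 barcodes were removed. Among neutrophils, 1 of the 7 in MC38 and 2 of the 1018 in Panc02-SIY had a sequence that another library of the same tumor also held. That MC38 barcode, with 17981 UMIs the deepest of the 7, occurred in all 8 MC38 libraries, and its library of origin is set by the rule alone. Without it MC38 had 6 neutrophils.

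The first question was how large the neutrophil share of CD45+ cells was in each tumor and after radiation. Untreated Panc02-SIY libraries held 71, 113, 63 and 149 neutrophils, which was 7.65%, 6.26%, 4.42% and 3.89% of their kept barcodes. Irradiated Panc02-SIY libraries held 94, 189, 196 and 143, or 10.7%, 10.1%, 9.17% and 4.97%. The upper 3 irradiated libraries lay above every untreated one, and the fourth lay inside the untreated range. The mean share was 5.56% ± 1.73 (SD, n = 4) without and 8.73% ± 2.58 (SD, n = 4) with radiation, a difference of 3.17 percentage points (exact two-sided permutation test, p = 0.0857, adjusted p = 0.129 over 3 share comparisons) that did not pass the threshold of 0.1. Without the fourth irradiated library the difference was 4.43 points (exact permutation test, adjusted p = 0.0857). In each arm the fourth library had the lowest share and the most kept barcodes, 3828 and 2875, and the part of library size in the shares was not tested.

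MC38 libraries held almost no cells of this gate. Untreated MC38 libraries held 0, 0, 1 and 3 neutrophils (0%, 0%, 0.410% and 0.896%), and a count of 0 allows shares of up to 1.48% and 2.0% in the first pair (3 counts over the kept barcodes, with exact binomial 95% upper bounds of 1.80% and 2.43%). Irradiated MC38 libraries held 0, 0, 1 and 2 (0%, 0%, 0.412% and 0.499%), with limits of 3.19% and 2.17% for the first pair (exact bounds 3.85% and 2.64%). These limits and the intervals below cover counting error only. All 8 MC38 libraries lay below all 8 Panc02-SIY libraries. The untreated tumors differed by 5.23 points (0.326% ± 0.426 in MC38 against 5.56% ± 1.73 in Panc02-SIY, SD, n = 4), with p = 0.0286 in the exact permutation test, the smallest that 4 against 4 libraries can give, and adjusted p = 0.0857. Of the 1801 other kept MC38 barcodes, 1169 had a sequence that another MC38 library also held. The kept counts under the MC38 shares and limits thus rest on the rule of most UMIs. With every barcode kept in every library the difference, MC38 minus Panc02-SIY, was -5.20 points. Whether the MC38 libraries are independent was not tested. The irradiated and untreated MC38 groups, with means of 0.228% and 0.326%, gave p = 1 in the exact permutation test. Over all barcodes of a tumor the neutrophil share was 0.387% in MC38 (exact binomial 95% interval 0.156% to 0.796%) and 6.46% in Panc02-SIY (6.08% to 6.86%).

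Depth differed between the tumors and between cell types. Panc02-SIY neutrophils were shallow, with a median of 2475 UMIs and 970 genes, against 6363.5 UMIs and 2218 genes in the other kept barcodes of that tumor. The other barcodes of MC38 had a median of 19025 UMIs. Among kept barcodes under 5000 UMIs, neutrophils made up 0.986% in MC38 (5 barcodes) and 14.5% in Panc02-SIY (949). Thinned to 1000 UMIs per barcode, with shallower barcodes left out, the Panc02-SIY shares were 6.49%, 5.48%, 3.58% and 3.07% without and 9.14%, 8.23%, 7.11% and 4.43% with radiation, in the same order of libraries as before thinning. Thinned MC38 shares were 0%, 0.826%, 0.469% and 0.676% without radiation and 0% in each irradiated library, a difference of -0.493 points (exact permutation test, p = 0.143).

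**Figure D1:**
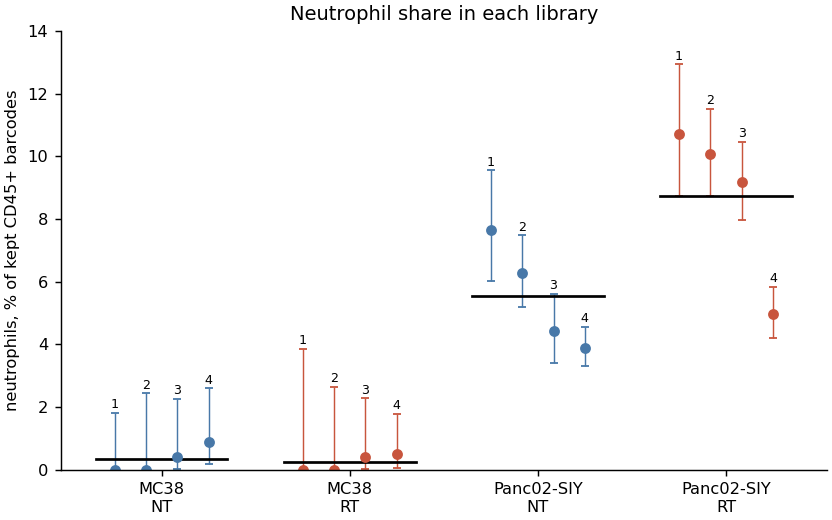
Neutrophils as a percentage of kept CD45+ barcodes (vertical axis) in each of the 16 libraries, by tumor line and treatment. A line marks the mean of each group of 4. Bars give the exact binomial interval of each library, which covers counting error only and not the spread between libraries. All 8 MC38 libraries sit below 1%, and the Panc02-SIY libraries range from 3.89% to 10.7%, with the untreated and irradiated groups overlapping.

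The gate had no sharp edge in S100a8 plus S100a9. In Panc02-SIY, 96 members held 10 to 14 of these UMIs, and 130 barcodes that met every other limit held 5 to 9. The median member held 64, or 2.50% of its UMIs, and 377 members held over 100. Of Csf3r plus Cxcr2, 26 members held exactly 1 UMI and the median member 8, and 35 barcodes were left out for having none. The C1q and Cd3 limits left out 55 and 94 barcodes that met the others, and 206 of the 1018 members held a C1q UMI below the limit.

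The label was checked against markers that the gate did not use. Of the 12 neutrophil markers on the list 4 chose the cells, and the other 8, Retnlg, G0s2, Il1r2, Mmp9, Ly6g, Hdc, Slpi and Trem1, all had UMIs in Panc02-SIY neutrophils. The summed level of these 8 ranged from 10121 to 15380 CPM (UMIs of a gene per 1e6 UMIs of the summed cells, scaled by TMM normalization factors) over the 8 libraries, against 145 to 441 CPM in all other kept barcodes. Because each UMI marks 1 transcript read from its 3′ end, CPM levels of different genes are compared here as transcripts and not per length. Mitochondrial transcripts made up 0.54% to 1.28% of neutrophil UMIs per library (median of cells), against 2.90% to 3.69% in the other barcodes.

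Markers of other cells were summed in the same way. The 7 macrophage markers outside the gate, led by the apolipoprotein gene Apoe, summed to 418 ± 117 CPM in untreated and 435 ± 108 CPM in irradiated neutrophils, against 727 ± 232 and 1196 ± 191 CPM in the other barcodes (SD, n = 4). With the 3 C1q genes, which the gate capped, the sums were 625 ± 173 and 570 ± 125 CPM against 2864 ± 1682 and 3242 ± 1519 CPM. The 7 monocyte markers, led by Ly6c2, summed to 351 ± 228 and 304 ± 115 CPM, and the 7 T cell markers, with Cd3d and Cd3e at 0 by the gate and Trbc2 leading, to 68.8 ± 7.07 and 40.03 ± 5.37 CPM. Among the other lists, the eosinophil genes Prg2 and Epx, the basophil gene Mcpt8 and mast cell gene Ms4a2, the platelet gene Ppbp and the B cell gene Ms4a1 were at 0 UMIs in all 8 libraries. Other members of these lists had UMIs. The 4 eosinophil markers, led by the chemokine receptor gene Ccr3 at 10.4 CPM, summed to 12.0 ± 4.58 and 11.04 ± 6.17 CPM, against 4.76 ± 2.56 and 6.72 ± 3.72 CPM in the other barcodes (SD, n = 4). Cpa3 led the mast cell or basophil list at 3.64 CPM and Pf4 the platelet list at 3.83 CPM. The 5 B cell markers, nearly all Ighm, summed to 120 ± 15.3 and 139 ± 11.6 CPM, and the 6 dendritic cell markers to 7.74 ± 6.13 and 11.2 ± 10.0 CPM. The 4 NK cell markers, led by the granzyme gene Gzma, stood at 86.1, 197, 665 and 51.9 CPM in the untreated libraries and at 63.8, 60.4, 42.1 and 26.0 CPM in the irradiated ones, so that untreated replicate 3 stood apart.

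The most abundant neutrophil transcripts in Panc02-SIY after Malat1 were S100a8 and S100a9, followed by the actin-related genes Tmsb4x and Actb and then by Il1b. S100a8 stood at 31078, 23215, 21711 and 17516 CPM in untreated and at 22741, 25906, 16986 and 22262 CPM in irradiated libraries. S100a9 averaged 19190 CPM over the 8 libraries, Csf3r 2140 CPM and Cxcr2 1129 CPM. In the other barcodes the same 4 genes averaged 143, 104, 58.1 and 18.7 CPM.

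Il1b, which encodes the inflammatory cytokine interleukin 1 beta, was the most abundant of the cytokine genes, at 15068 CPM over the 8 libraries against 681 CPM in the other barcodes. Cxcl2, a chemokine gene whose product binds the receptor encoded by Cxcr2, averaged 6795 against 207 CPM. Ptgs2, which encodes the prostaglandin synthase COX-2, averaged 3842 against 167 CPM. The genes Ccl3 and Ccl4, for chemokines that attract monocytes and T cells, averaged 1382 against 485 CPM and 2117 against 1839 CPM, so the ratio of levels was far smaller for them than for Il1b and Cxcl2.

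Levels of individual identity and granule genes ranged widely. Hdc, the histidine decarboxylase gene that makes histamine, averaged 3636 CPM, G0s2, an inhibitor of triglyceride breakdown, 2411 CPM, and Cxcr4, the receptor gene that holds and recalls neutrophils to the marrow, 1924 CPM. Retnlg, a resistin-like gene of mouse granulocytes, averaged 1229 CPM against 10.0 CPM in the other barcodes, and the gelatinase gene Mmp9 1067 CPM. The secondary granule genes Lcn2 and Ltf averaged 170 and 28.3 CPM and Ngp 2.86 CPM (9 UMIs in all), the antimicrobial peptide gene Camp and the myeloperoxidase gene Mpo had 1 UMI each, and the primary granule genes Elane, Prtn3 and Ctsg had none. Ly6g, whose product is the usual antibody marker of mouse neutrophils, had 35 UMIs in 1018 cells, too few for its change with radiation to be tested among neutrophils alone.

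Among genes with at least 100 CPM in neutrophils, the ratio of levels to the other barcodes (with 1 CPM added to both) was highest for S100a9 (182) and S100a8 (158), which chose the cells. Outside the gate it was highest for Retnlg (112), Gm5483 (106), the stefin gene Stfa2l1 (89.8), Wfdc21 (89.8), G0s2 (83.3) and the interleukin 1 family gene Il1f9 (66.1). These ratios describe the gated cells and carry no test, since the cells were chosen by their transcripts.

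Several genes described in neutrophils of tumors were also present. Cd274, which encodes the checkpoint ligand PD-L1, averaged 1320 CPM against 162 CPM in the other barcodes. Siglecf, a lectin gene found in eosinophils and in some tumor neutrophils, averaged 50.6 CPM against 3.63 CPM. Nos2, which encodes the inducible nitric oxide synthase, had 3 UMIs.

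**Figure D2:**
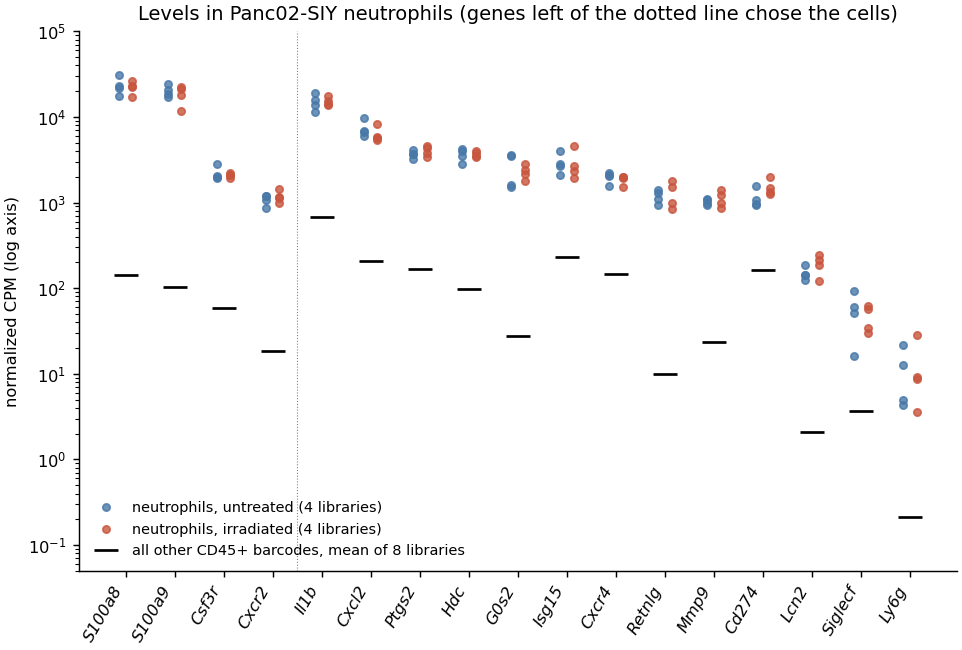
Normalized CPM (log axis) of 17 genes in Panc02-SIY neutrophils, 1 point for each untreated (blue) and irradiated (red) library, with a black bar for the mean of all other CD45+ barcodes over 8 libraries. The 4 genes left of the dotted line chose the cells, and Lcn2, Siglecf and Ly6g lie furthest below the gate genes.

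Per-cell levels varied more for Cxcl2 than for Il1b. The 10th, 50th and 90th percentiles of neutrophils were 0.643%, 1.57% and 2.62% of UMIs for Il1b, with 0.688% of the cells at 0, and 0%, 0.372% and 1.90% for Cxcl2, with 21.6% at 0. S100a8 plus S100a9 spanned 0.616% to 10.7% between the 10th and 90th percentile. Each cell was then thinned to 1000 UMIs, which left out 2 untreated and 9 irradiated neutrophils. The T cell barcodes set beside them were those with a Cd3d or Cd3e UMI and without any S100a8 or S100a9 UMI. Cd3 barcodes that held S100a8 or S100a9 were therefore not counted. Il1b was seen in 98.4% of untreated and 98.3% of irradiated neutrophils (mean of 4 libraries), against 4.37% and 7.85% of T cell barcodes, which should lack it. Without thinning the shares were 99.8% and 98.7% against 19.2% and 25.5%, at median depths of 2597 and 2381 UMIs in neutrophils and 8460 and 6244 in T cell barcodes. Cxcl2 was seen in 72.4% and 72.3% against 1.15% and 1.33% (77.8% and 77.6% against 5.12% and 6.97% without thinning). The thinned share with Cd74, the invariant chain gene of antigen-presenting cells, was 22.2% and 17.6% against 18.0% and 16.4% in T cell barcodes. The part of background RNA in these shares was not tested.

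The 7 MC38 cells were too few for any test. Pooled, they held 45272 UMIs, of which 17981 came from the barcode found in all 8 MC38 libraries, and levels without it are not given. S100a8 stood at 5611 CPM (254 UMIs, exact Poisson 95% interval 4942 to 6345) against 21812 over pooled Panc02-SIY neutrophils, and S100a9 at 7267 (6503 to 8096) against 18524. Il1b stood at 18378 CPM (17150 to 19670) against 15410, and Cxcl2 at 8107 (7298 to 8980) against 6923. Retnlg was seen in 1 cell and Ly6g in none. The macrophage gene Apoe was seen in all 7 cells, at 8615 CPM against 175, and so was Cd74, at 5633 against 575, and 6 of the 7 held a C1q UMI. The label neutrophil is therefore held less firmly for MC38, and the results that follow concern Panc02-SIY.

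The second question was which neutrophil transcripts differed 24 h after radiation. UMIs were summed over the neutrophils of each Panc02-SIY library (191904 to 518488 UMIs) and compared with edgeR quasi-likelihood tests. Of 5654 genes tested, 1 (0.0177%) met both limits for a call, an adjusted p under 0.1 and a change of more than 1.3-fold, and 351 had an unadjusted p below 0.05. DESeq2 called 2 genes, Cdkn1a among them.

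Cdkn1a (ENSMUSG00000023067, chr17:29090976-29100727, forward strand) encodes p21, the cell cycle inhibitor that p53 induces. It stood at 91.5, 235, 144 and 236 CPM in untreated and at 511, 364, 483 and 962 CPM in irradiated neutrophils, without overlap between the groups. The fitted change was 3.15-fold (log2 1.65, SE 0.353), but the adjusted p was 0.385 by edgeR, so it was not called, while DESeq2 gave an adjusted p of 7.9e-04. Without irradiated replicate 4, the highest library, edgeR gave an adjusted p of 0.0893, and it also called the gene with no filter on low counts (log2 1.71, adjusted p = 1.8e-11) and under the replicate block (1.68, adjusted p = 0.0019). Thinned, 8.42% of untreated neutrophils (4.23% to 11.6% over libraries) and 24.2% of irradiated ones (19.7% to 30.7%) held a Cdkn1a UMI, against 2.25% and 18.0% of T cell barcodes (without thinning, 16.5% and 36.0% against 10.9% and 45.1%).

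The list of p53 targets held 36 genes, of which 19 passed the filter on low counts and were tested. None was called by edgeR, 7 had an unadjusted p below 0.05, all of them higher, 17 had a fold change above 0 on the log2 scale, and their median was 0.57, against -0.00 over all 5654 genes. In 5 of the 19 every irradiated library was above every untreated one, a pattern that 2.18% of all tested genes showed in that direction and 1.56% in the other. These were Cdkn1a, the BH3-only death gene Bbc3, the p53-induced Ei24, the ubiquitin ligase subunit gene Fbxw7 and the TRIM family gene Trim12a. Ei24 rested on few UMIs, at 5.38, 3.13, 9.93 and 8.66 CPM against 24.8, 18.1, 29.3 and 15.2 CPM (adjusted p = 0.641), and Bbc3 on 12 and 38 UMIs in all. Genes this low can pass the filter through the irradiated group alone, and neither was tested with a minimum count of 10. The 5 genes and the median of 0.57 include them, so both values are given as a description. Ccng1, which encodes cyclin G1, stood at 16.1, 75.1, 84.4 and 51.9 CPM without and 103, 78.5, 137 and 84.5 CPM with radiation (log2 0.79, SE 0.31, adjusted p = 0.737), with overlap. Phlda3, an inhibitor of AKT signaling, had 2 and 14 UMIs and was not tested.

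Interferon-stimulated genes did not give a call in neutrophils. Of 40 genes on the list 37 were tested, 30 were above 0, 7 had an unadjusted p below 0.05, and their median log2 fold change was 0.21. Isg15, a ubiquitin-like modifier and the best expressed of those described here, stood at 2083, 2804, 2675 and 3982 CPM in untreated and 2323, 2670, 1954 and 4598 CPM in irradiated neutrophils. The groups overlapped over most of their range (log2 -0.01, SE 0.27, adjusted p = 0.998). Rsad2, which encodes the antiviral enzyme viperin, averaged 1206 ± 214 and 1829 ± 757 CPM (SD, n = 4; log2 0.60, adjusted p = 0.772), also with overlap. Rsad2 gave 0.28 without irradiated replicate 4 and was called with no filter on low counts (0.66, adjusted p = 0.0468). The immunity-related GTPase gene Iigp1 was the 1 of 37 tested members whose groups did not overlap (2.18% of all tested genes did so in that direction), at 5.38, 9.39, 0 and 19.5 CPM against 24.8, 72.5, 38.4 and 43.3 CPM (log2 2.07, SE 0.50, adjusted p = 0.36), on 13 and 84 UMIs. Its log2 fold change was 2.96 without untreated replicate 4 and 0.65 without the 27 neutrophils over 3 times the median UMIs (adjusted p = 0.117 and 0.899), and it was called with no filter on low counts (2.13, adjusted p = 0.0039) and under the replicate block (2.21, adjusted p = 0.0448). With 13 untreated UMIs, Iigp1 can pass the filter through the irradiated group alone, and it was not tested with a minimum count of 10. Its lack of overlap and its calls within neutrophils are therefore given as a description.

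No cytokine or chemokine gene was called after radiation. Il1b (ENSMUSG00000027398, chr2:129364570-129371139, reverse strand) stood at 15671, 13902, 11421 and 19083 CPM in untreated and 14072, 15134, 13894 and 17370 CPM in irradiated neutrophils. All irradiated values lay inside the untreated range, and the log2 fold change was 0.01 (SE 0.15, adjusted p = 0.998). Cxcl2 (ENSMUSG00000058427, chr5:90903871-90905938, forward strand) stood at 6056, 6788, 6651 and 9759 CPM without and 5303, 5737, 5790 and 8275 CPM with radiation (log2 -0.23, SE 0.17, adjusted p = 0.893), again with overlap. Il1rn, the interleukin 1 receptor antagonist gene, was the 1 of 16 tested members whose libraries did not overlap (2.18% over all tested genes), at 1421, 1289, 1013 and 753 CPM against 1713, 1456, 1422 and 1583 CPM (log2 0.47, SE 0.18, adjusted p = 0.731). Over the 16 tested genes of the list of 18 the median was 0.30, and 2 had an unadjusted p below 0.05.

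Receptor and adhesion genes gave no call in the same edgeR fit either. Ccr1, a receptor for Ccl3 and related chemokines, stood at 1012, 879, 908 and 1006 CPM in untreated and 1238, 1466, 1371 and 1642 CPM in irradiated neutrophils. The groups did not overlap, and the log2 fold change was 0.58 (SE 0.15, adjusted p = 0.385). Ccr1 was called with no filter on low counts (adjusted p = 0.0713), without the neutrophils over 3 times the median UMIs (0.0963) and under the replicate block (0.0965). Csf2rb, the shared beta chain gene of the GM-CSF and interleukin 3 receptors, stood at 560, 538, 437 and 610 CPM against 670, 707, 637 and 1117 CPM (log2 0.54, SE 0.19, adjusted p = 0.706). Without irradiated replicate 4 its log2 fold change was 0.31. Ccr1 and Csf2rb were the 2 of 24 tested members without overlap, both higher, where 2.18% of all tested genes showed that pattern. On the list 3 members had an unadjusted p below 0.05, and the median was 0.15. The receptor genes of the gate, as a description, had Csf3r at 2191 ± 419 and 2090 ± 121 CPM and Cxcr2 at 1077 ± 163 and 1181 ± 196 CPM (SD, n = 4).

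Among genes described in tumor neutrophils, 11 of 15 were tested, 9 were above 0, none was called, 5 had an unadjusted p below 0.05, and the median was 0.41. Cd274 averaged 1130 ± 298 and 1510 ± 332 CPM (SD, n = 4) with overlapping libraries (log2 0.41, SE 0.19, adjusted p = 0.799). Siglecf stood at 16.1, 93.9, 59.6 and 51.9 CPM in untreated and 56.8, 34.2, 62.2 and 30.3 CPM in irradiated neutrophils (log2 -0.35, SE 0.36, adjusted p = 0.926). The lowest and the highest of these 8 Siglecf values were both in untreated libraries.

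No member of the other function lists was called by edgeR or DESeq2, and at most 4 genes of a list had an unadjusted p below 0.05. The medians were 0.33 over 9 tested granule protein genes, 0.10 over 24 neutrophil identity genes outside the gate, 0.11 over 20 apoptosis and survival genes, 0.24 over 22 hypoxia and glycolysis genes, 0.18 over 14 antigen presentation genes and 0.10 over 13 transcription factor genes. They were -0.09 over 6 genes of the NADPH oxidase, the enzyme of the respiratory burst, and -0.01 over 22 NF-kB and immediate early genes. Hif1a, the oxygen-regulated transcription factor gene, was the hypoxia list's member without overlap, at 161, 106, 119 and 156 CPM against 181, 193, 227 and 258 CPM (log2 0.66, SE 0.21, adjusted p = 0.641). On the NF-kB list of 22 the libraries did not overlap (over all tested genes, 2.18% higher and 1.56% lower) for Relb and Ier2, with every irradiated library the lower, and for Tnfaip2, with every irradiated library the higher. Relb, an NF-kB subunit gene, stood at 69.98, 43.8, 64.5 and 47.6 CPM against 21.3, 32.2, 38.4 and 38.98 CPM (log2 -0.69, SE 0.31, adjusted p = 0.799), on 62 and 61 UMIs. The immediate early gene Ier2 gave -0.35 (SE 0.16) and Tnfaip2, a TNF-induced gene, 0.33 (SE 0.14), both with an adjusted p of 0.799. The NADPH oxidase subunit gene Ncf1 (0.27, SE 0.16, adjusted p = 0.854) and the class I gene H2-K1 (0.19, SE 0.14, adjusted p = 0.893) had every irradiated library above every untreated one.

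A pair of genes outside the lists, chosen after their values were seen, had among the lowest p-values. The tubulin-binding gene Stmn1, which is high in cycling cells, stood at 16.1, 46.9, 44.7 and 39.0 CPM in untreated and 0, 10.1, 3.66 and 10.8 CPM in irradiated neutrophils (log2 -2.45, SE 0.52, adjusted p = 0.244), and in the other barcodes it averaged 319 and 120 CPM. With so few irradiated UMIs Stmn1 can pass the filter through the untreated group alone, and its values and calls are given as a description. Gk, which encodes glycerol kinase, stood at 80.7, 78.2, 94.3 and 106 CPM against 241, 161, 130 and 204 CPM (log2 0.99, SE 0.23, adjusted p = 0.36). Neither had overlapping groups and neither was called in that edgeR fit. Both were called with no filter on low counts (adjusted p = 0.0053 for Stmn1 and 0.0079 for Gk), without the neutrophils over 3 times the median UMIs (0.0919 for both) and under the replicate block (0.0395 and 0.0504), and Stmn1 also with all libraries that hold a neutrophil (0.0833) and without untreated replicate 1 (0.0699).

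**Figure D3:**
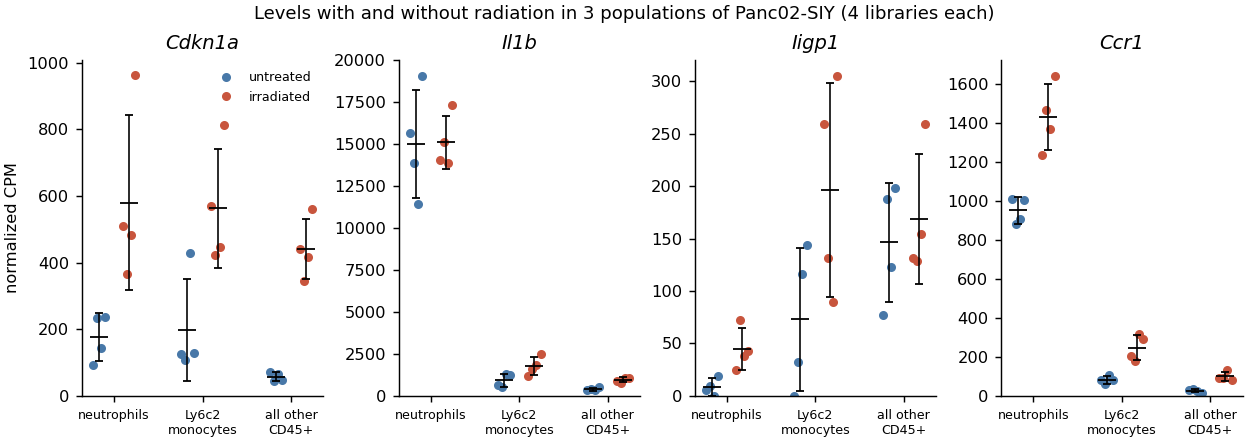
Normalized CPM (linear axis from 0, a separate scale for each gene) of Cdkn1a, Il1b, Iigp1 and Ccr1 in neutrophils, Ly6c2 monocytes and all other CD45+ barcodes of Panc02-SIY, with 1 point for each untreated (blue) and irradiated (red) library and bars for the mean and SD of 4. Ccr1 is at 879 to 1012 CPM in untreated and 1238 to 1642 CPM in irradiated neutrophils, while Il1b has nearly the same mean in both.

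The third question was whether the neutrophil response differed from that of the other CD45+ cells in the same tumors. For each Panc02-SIY library the neutrophil sum was set against the sum of all other kept barcodes, with the library as a block. Of 12826 genes, 184 (1.43%) were called for a difference in radiation response, 166 lower in neutrophils (1.29%) and 18 higher (0.14%). The 166 and the counts by level below include the gate genes S100a8, S100a9 and Csf3r. These chose the cells, so their calls are not read as a result. Most of the lower ones were genes that neutrophils express strongly: 133 of the 166 had a higher mean level in neutrophils than in the other barcodes, and 100 were at least 5 times higher. In the other barcodes fitted alone 165 of them could be tested, 117 were called as raised and 1 as lowered, and the median log2 change over the 165 was 1.02. Their median in neutrophils was 0.00 over the 135 that could be tested there, and 103 of these had a fold change under 1.3 either way. For scale, the other barcodes fitted alone gave 725 raised (5.36%) and 565 lowered (4.17%) of 13536 genes.

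The other barcodes are a mixture, and its makeup moved with radiation. Ly6c2 monocytes, selected by at least 2 Ly6c2 UMIs and a Ccr2 UMI and without the neutrophil, T cell and C1q genes, made up 1.38% ± 0.539 of the other barcodes in untreated and 3.75% ± 0.854 in irradiated libraries (SD, n = 4). Barcodes with 5 or more UMIs of S100a8 plus S100a9 that fell outside the gate made up 2.05% ± 0.698 and 3.22% ± 0.878, barcodes with a Cd3 UMI 59.8% ± 5.12 and 47.7% ± 7.72, and C1q barcodes 21.8% ± 11.3 and 15.6% ± 6.71. A change in level in the mixture and a change in its makeup cannot be told apart in sums. With the Ly6c2 monocytes and the S100a8 or S100a9 barcodes left out of the others, an alternative chosen after the data were seen, 149 genes were called, 146 of them among the 184.

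Cytokine genes were among those lower in neutrophils, with 7 of 18 on the list called, against 1.29% of all genes tested. The others' Il1b level was 356, 418, 327 and 512 CPM without and 916, 774, 1070 and 1077 CPM with radiation, without overlap, while neutrophil Il1b stayed inside its untreated range. The response was lower in neutrophils by 1.17 on the log2 scale (log2 -1.17, SE 0.18, adjusted p = 3.5e-08). Il1rn gave -1.44 (SE 0.20, adjusted p = 3.3e-09). Cxcl2 gave -1.31 (SE 0.20, adjusted p = 2.8e-07), but 4 of 18 alternatives did not call it, among them a minimum count of 10 (adjusted p = 0.427, range over the alternatives 3.0e-09 to 0.727). Osm, which encodes the cytokine oncostatin M, gave -1.31, and Ptgs2 gave -0.92, which was not called with a limit of 5 on S100a8 plus S100a9 or without untreated replicate 2 or 3 or irradiated replicate 4 (-0.86 to -0.62). Even in irradiated libraries neutrophil Il1b, at a mean of 15118 CPM, was far above the 959 CPM of the others.

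Of 24 receptor and adhesion genes, 12 were called lower in neutrophils (1.29% over all genes). Itgam, which encodes the CD11b integrin chain, stood at 598, 507, 506 and 515 CPM in untreated and 514, 487, 448 and 546 CPM in irradiated neutrophils. In the other barcodes it averaged 42.7 ± 8.57 and 118 ± 18.8 CPM, and the difference in response was -1.51 (SE 0.21, adjusted p = 3.3e-09). Cd14, the lipopolysaccharide co-receptor gene, gave -1.33 (SE 0.20, adjusted p = 1.2e-07) and Ccr1 -1.28 (SE 0.20, adjusted p = 2.1e-07). For Ccr1 the fitted change within neutrophils was above 0 too, and the mean in the others went from 27.4 ± 8.21 to 101 ± 21.9 CPM (SD, n = 4).

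Interferon-stimulated genes were called lower in neutrophils in 11 of 39 cases and higher in 1, where the shares of all genes were 1.29% and 0.14%. Isg15 gave -0.91 (SE 0.19, adjusted p = 3.7e-04), with the others at 158 ± 29.2 and 306 ± 91.8 CPM, and was not called without untreated replicate 2 or 3 or irradiated replicate 2 (-0.89 to -0.80). Slfn4, a Schlafen gene of myeloid cells, gave -1.42 (SE 0.23, adjusted p = 3.3e-07). The exception was Iigp1, whose response was higher in neutrophils by 2.11 (SE 0.43, adjusted p = 2.2e-04), with the others at 146 ± 56.8 and 169 ± 61.6 CPM. With neutrophils over 3 times the median UMIs left out, 27 cells, it was 0.62 and not called. In the others fitted alone 27 of the 39 were raised, against 5.36% of all genes tested there.

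For p53 targets, 4 of 35 were called lower in neutrophils (1.29% over all genes), Cdkn1a, Ccng1, Pmaip1 and Btg2. Cdkn1a rose in the others from 58.3 ± 12.9 to 441 ± 89.4 CPM, and its response in neutrophils was lower (log2 difference -1.304, SE 0.23, adjusted p = 7.8e-06). It was not called by DESeq2 (adjusted p = 0.106), with a minimum count of 10 or without untreated replicate 2 (adjusted p from 4.2e-08 to 0.384 over 18 alternatives). That difference held a higher untreated level in neutrophils (177 against 58.3 CPM) and a higher irradiated level as well (580 against 441 CPM). The median difference over the list was -0.19, against -0.02 over all genes.

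Of 26 neutrophil identity genes outside the gate, 8 were called lower in neutrophils, against 1.29% of all genes tested. The gate's own genes are given as a description, and their calls are not read: in the other barcodes S100a8 stood at 105 ± 41.4 CPM without and 180 ± 83.2 CPM with radiation (SD, n = 4). The part of neutrophil RNA in the others' rise was not tested.

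By the rule for the largest differences (called, at least 20 CPM, no overlap between the groups in the within-library difference), the falls were Klrb1c, Prf1, Klre1, Ly6i and Gpr84 and the rises Iigp1, Hbegf, Gm26917, Adss and Hmgn2. Klrb1c and Klre1, lectin receptor genes of NK cells, and Prf1, the perforin gene, had few UMIs in neutrophils. Klrb1c stood at 16.1, 15.6, 69.5 and 6.49 CPM in untreated and 3.55, 0, 3.66 and 0 CPM in irradiated neutrophils (25 and 3 UMIs), for a difference of -4.54. Prf1 gave -2.51 and Klre1 -2.34. Their highest values were in untreated replicate 3, the library in which Gzma also stood apart, and without that library Prf1 gave -1.48 and Klre1 -2.03, and neither was called. Prf1 was also not called with a limit of 20 on S100a8 plus S100a9 (-1.44, adjusted p = 0.407), nor Klre1 without untreated replicate 2 (-1.91). The myeloid genes among the falls were Ly6i, of the Ly6 surface protein family, at 133 ± 16.6 and 108 ± 50.8 CPM in neutrophils against 10.1 ± 4.91 and 31.9 ± 3.11 CPM in the others (-2.14), and Gpr84, a receptor gene for medium-chain fatty acids, at -2.12, which 9 of 17 alternatives did not call.

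Hbegf, which encodes a ligand of the EGF receptor, stood at 5.38, 53.2, 9.93 and 93.1 CPM in untreated and 117, 68.5, 121 and 158 CPM in irradiated neutrophils, with 1 irradiated library inside the untreated range. It averaged 27.2 and 28.1 CPM in the others, and the difference in response was 1.53 (SE 0.35, adjusted p = 0.0023). It was not called with a limit of 20 on S100a8 plus S100a9 (1.10, adjusted p = 0.212, range over 18 alternatives 9.1e-04 to 0.212). Hmgn2, a nucleosome-binding protein gene, gave 1.11, with the others at 185 ± 62.5 and 86.1 ± 23.3 CPM and neutrophils at 104 ± 9.27 and 100 ± 20.3 CPM, and was not called without untreated replicate 4 (0.88). The purine synthesis gene Adss gave 1.18 and Gm26917 1.43, and more alternatives lost these calls than kept them.

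**Figure D4:**
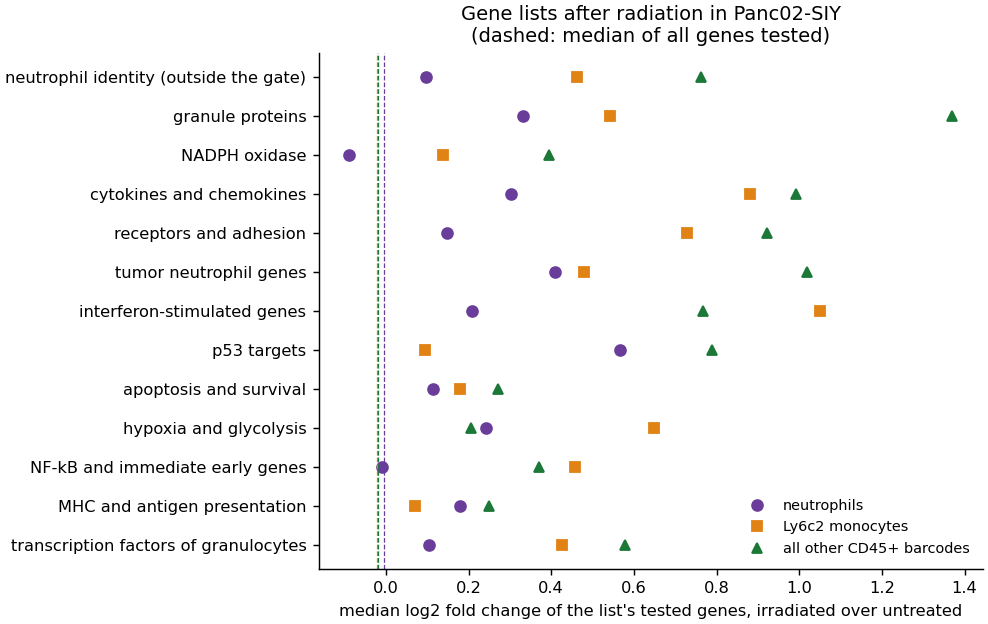
Median log2 fold change (irradiated over untreated, horizontal axis) of the tested genes of 13 function lists in Panc02-SIY neutrophils, Ly6c2 monocytes and all other CD45+ barcodes, each fitted alone, with dashed lines at the median of all genes tested. Neutrophil medians lie between -0.09 and 0.57, and the p53 targets are the highest of them.

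Ly6c2 monocytes, a name that stands for their gate, were also set beside neutrophils. They carried 2973 ± 635 and 4498 ± 301 CPM of the 7 monocyte markers (SD, n = 4) but also 2989 ± 1198 and 3006 ± 801 CPM of the 4 NK cell markers, so the gate also took lymphocytes with Ly6c2 transcripts and is called by its rule. Fitted alone, 121 of 6504 genes were raised in them (1.86%) and 135 lowered (2.08%). Of 8380 genes, 2 (0.0239%) were called for a response that differed from that of neutrophils, and DESeq2 called 0, with 256 at an unadjusted p below 0.05. They were Gzmb, a granzyme gene, with a difference of -2.25 (SE 0.43, adjusted p = 0.0337), and Ier3, an immediate early survival gene, with -1.66 (SE 0.35, adjusted p = 0.0978). Gzmb was not called by DESeq2 or without irradiated replicate 1, 3 or 4 (-2.32 to -2.11), and Ier3 lost its call under 9 of 17 alternatives, among them leaving out untreated replicate 1 or 2 or irradiated replicate 1, 3 or 4 (-1.72 to -1.47).

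Ier3 stood at 1534, 1559, 1102 and 1361 CPM in untreated and 1894, 1446, 1556 and 1999 CPM in irradiated neutrophils, with overlap, and averaged 57.8 and 258 CPM in the Ly6c2 monocytes. Gzmb averaged 40.5 ± 29.2 and 15.9 ± 10.1 CPM in neutrophils and 337 and 709 CPM in the Ly6c2 monocytes. The number of calls rested on single libraries: without untreated replicate 3 it was 96, and over the other 7 libraries left out in turn it reached as low as 0.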

How the data were processed

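The authors counted UMIs per barcode and gene with Cell Ranger 3.1.0 (mm10, per the labels), and deposited raw counts, 1 matrix per library. Aggregated matrices of all libraries were not used. The gate was applied per library in Python 3.11.15 (numpy 2.4.6, scipy 1.17.1, pandas 2.3.3). Counts were summed over neutrophils, other barcodes and Ly6c2 monocytes per library and fitted in R 4.3.3 with edgeR 4.0.16 (TMM, filterByExpr with a minimum count of 5 and total of 15, robust quasi-likelihood F tests, Benjamini-Hochberg adjustment over all genes tested). A call needed an adjusted p under 0.1 with a change of over 1.3-fold, the limits of the study's methods. Libraries with fewer than 10 neutrophils were left out, which left no MC38 library, so no MC38 gene was tested. Shares were compared by exact two-sided permutation.

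Alternatives were DESeq2 1.42.0, RLE scaling, other count minimums, S100a8 plus S100a9 limits of 5 or 20, no barcode rule, the 27 neutrophils over 3 times the median UMIs (a stand-in for doublets, since no caller was run) left out, a replicate block and leaving out each library. The tests were tried on simulated data with 200 genes changed 4-fold. Within neutrophils 100% of these were recovered, and 11.5% of the calls were false. Against all other barcodes the values were 98.5% and 3.43%, and against Ly6c2 monocytes 86% and 7.03%. Smaller changes were not simulated. The neutrophil gate, the gene lists and the comparisons were chosen with earlier results of these data known. Named genes are the gate genes, called and abundant members of the lists, the 5 largest called rises and falls per comparison with non-overlapping libraries and at least 20 CPM, and 8 fixed genes (Cdkn1a, Phlda3, Ccng1, Il1b, Cxcl2, Siglecf, Ly6g, Cd274). Members named for non-overlapping libraries were chosen after their values were seen. Some results, among them the 1 gene called in neutrophils, are not reported here.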

Additional observations from a re-analysis of the deposited data

Results flagged for a closer look

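Within the 4 libraries of an arm, 4 of 66 groups of values had a library set apart by a gap above Dixon's 95% limit for 4 values, which chance gives in about 1 in 20 groups. Csf3r stood at 2815 CPM in untreated replicate 1, Phlda3 at 4.33 CPM in untreated replicate 4 (its other untreated libraries were at 0), and Cxcl2 at 8275 CPM and Csf2rb at 1117 CPM, both in irradiated replicate 4.

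The radiation response of neutrophils differed from that of all other CD45+ barcodes, by a test of the difference within libraries, for these genes (log2 difference). Cytokine and related genes were Il1rn (-1.44), Osm (-1.31), Cxcl2 (-1.31), Il1b (-1.17) and Ptgs2 (-0.92). Receptor and adhesion genes were Itgam (-1.51), Cd14 (-1.33) and Ccr1 (-1.28). Interferon-stimulated genes were Slfn4 (-1.42), Isg15 (-0.91) and Iigp1 (2.11), beside the p53 target Cdkn1a (-1.304). Hbegf (1.53), Hmgn2 (1.11), Adss (1.18) and Gm26917 (1.43) differed in the other direction. Klrb1c (-4.54), Prf1 (-2.51), Klre1 (-2.34), Ly6i (-2.14) and Gpr84 (-2.12) were the falls named by the rule on level and overlap, which left out the keratin genes Krt8 (-2.41) and Krt18 (-3.64), also called lower, and the collagen genes Col1a1 and Col1a2, called higher. The epithelial markers summed to 182 CPM in the neutrophils of untreated replicate 4 and to 0, 15.6 and 9.93 CPM in the other untreated libraries. Both collagen genes were at 0 in untreated neutrophils, and the fibroblast markers summed to 333 CPM in the other barcodes of untreated replicate 3, against 3.71, 13.2 and 32.4 CPM in the other untreated libraries. Against Ly6c2 monocytes the genes were Gzmb (-2.25) and Ier3 (-1.66). The part of the makeup of the other barcodes in these differences was not tested.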

How the results depend on the processing

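The neutrophil sum of a Panc02-SIY library held 191904 to 518488 UMIs, and the part of depth in the spread between libraries was not tested. The Panc02-SIY share difference passed its threshold without irradiated replicate 4 (4.43 points) and ranged from 2.51 to 4.43 points with 1 library left out. The untreated difference between the tumors, -5.23 points, failed the threshold under the replicate block and without each library (-5.79 to -4.53), where the smallest p that the exact permutation test can give is 0.125 and 0.0571. With 1 library left out the MC38 share difference ranged from -0.21 to 0.0910 points, with a change of sign without untreated replicate 4, and thinned it was -0.493 points. Alternatives for MC38 genes gave no value, since no library had 10 neutrophils.

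The number of genes called in neutrophils was 2 by DESeq2, 52 without a filter, 17 without neutrophils over 3 times the median UMIs, 2 with all libraries that hold a neutrophil, and 1 to 4 with 1 library left out. With a replicate block it was 15, Cdkn1a, Ccr1, Iigp1, Stmn1 and Gk among them. Deviations from the group means had correlations of 0.0697, -0.0697, 0.0649 and 0.166 between same-numbered untreated and irradiated libraries. Between differently numbered ones they were -0.139 to 0.0819. Whether same-numbered libraries share a batch was not tested. Against all other barcodes the number of genes called was 106 by DESeq2, 116 with a minimum count of 10, 103 with a limit of 5 on S100a8 plus S100a9, and 91 to 166 with 1 library left out, lowest without untreated replicate 2. Against Ly6c2 monocytes it was 0 by DESeq2, 32 without a filter, 1 with a minimum count of 10, 8 with a limit of 20, 1 with every barcode kept in every library, 26 without the neutrophils of highest UMIs, 1 at an adjusted p below 0.05, and 0 to 96 with 1 library left out. The cause of these shifts was not tested.

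Of the named genes in neutrophils, Il1b changed sign with limits of 5 (-0.013) and 20 (-0.079) and over -0.11 to 0.14 with 1 library left out, Siglecf ranged from -0.58 to 0.023, the latter without untreated replicate 2, and Isg15 changed sign without a filter (0.053), without the neutrophils of highest UMIs (0.0015), with all libraries (0.0065) and over -0.33 to 0.19 with 1 library left out; none of them was called. Differences from the other barcodes kept their call in 326 gene and alternative pairs, lost it in 51 and kept their direction in all. Il1rn, Il1b, Osm, Itgam, Cd14, Ccr1, Slfn4, Ly6i and Klrb1c kept it in every one.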
